A study of Mus musculus with 8 samples.

Results

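The G1 cyclins, their kinases and the related Myc factors were described in adipose tissue macrophages that lack the miR-23-27-24 clusters. The set comprised 10 genes, chosen by symbol: the D-type cyclins Ccnd1, Ccnd2 and Ccnd3, their kinases Cdk4 and Cdk6, the E-type cyclins Ccne1 and Ccne2, their kinase Cdk2, and the transcription factors Myc and Mycl. All 10 were among the 15867 genes of the expression table, and all 10 passed the filter on low values. Poly(A)-selected RNA was sequenced from macrophages isolated from obese adipose tissue by the surface protein F4/80, after mice had been fed a high-fat diet for 20 weeks. The 4 KO libraries came from Mirc11fl/fl Mirc22fl/fl Lyz2Cre/Cre mice, in which Cre recombinase, expressed from the myeloid gene Lyz2, removes both clusters. The 4 fl/fl libraries came from Mirc11fl/fl Mirc22fl/fl Lyz2+/+ mice. Floxed clusters, diet and tissue were thus shared by the groups, whereas cluster loss, Cre and the disruption of Lyz2 came together in the KO group and cannot be told apart. The design text calls the samples biological replicates without saying whether each was 1 animal, and the labels give no age for the mice.

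Cells leave the resting state when mitogens, in macrophages chiefly colony-stimulating factor 1, induce D-type cyclins. Cyclin D binds Cdk4 or Cdk6, and the complexes phosphorylate the retinoblastoma protein, which frees E2F factors to transcribe the E-type cyclins and the genes of DNA synthesis; cyclin E with Cdk2 then completes the switch into S phase. Myc is an early mitogen-induced factor that acts as a partner of Max and promotes growth and G1 progression, and much of this control acts on protein stability and kinase activity that messenger RNA levels do not show. In obese adipose tissue, macrophages can divide locally, and the series title places the clusters in that process.

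The microRNAs that were deleted are shown first because a seed match in a 3′ untranslated region (UTR) is the usual way in which they recognise a transcript. Their mature sequences follow, with the seed, bases 2 to 8, in capitals. They were taken from RefSeq on GRCm38.p6, and miR-23b-3p is named only. The mature miR-23a-3p and miR-27a-3p lie on chromosome 8, miR-27b-3p on chromosome 13, and miR-24-3p is encoded on both.
miR-23a-3p: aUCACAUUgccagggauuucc
miR-27a-3p: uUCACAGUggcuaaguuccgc
miR-27b-3p: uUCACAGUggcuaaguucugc
miR-24-3p: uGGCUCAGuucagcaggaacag
The 2 miR-27 sequences share a seed, which gives 3 seed families with the miR-23 and miR-24 families.

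The complement of each seed was searched on the sense strand of the longest annotated 3′ UTR of each member (GENCODE M21, mm10). The words were AATGTGA for miR-23, CTGAGCC for miR-24 and ACTGTGA for miR-27. A match was found in 3 of the 10 members, with 6 matches in all. Each is shown here as a 22-base window with the match in capitals, because they are all the matches found. Matches to only part of a seed, other isoforms and coding sequence were not searched.
Ccnd1 miR-23 site, chr7:144931278-144931299, minus strand: gtgtgactcaaagcAATGTGAt
Ccnd1 miR-23 site, chr7:144930652-144930673, minus strand: atctattttggcttAATGTGAt
Cdk6 miR-24 site, chr5:3527124-3527145, plus strand: agagacccagccccCTGAGCCa
Cdk6 miR-24 site, chr5:3527458-3527479, plus strand: ccattctggagttcCTGAGCCt
Cdk6 miR-23 site, chr5:3530324-3530345, plus strand: tgtatccaagggtgAATGTGAc
Mycl miR-27 site, chr4:123002030-123002051, plus strand: caaattggctcccaACTGTGAt
The first Cdk6 window ends in the adenine that extends a match to the 8-base form, and the other 5 matches are of the 7-base form.

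Among the 14838 tested genes with an annotated 3′ UTR, 16.7% held the miR-23 word, 19.2% the miR-24 word and 17.8% the miR-27 word. The 3′ UTR of Cdk6 is 10217 bases long, and of the 108 UTRs within 0.8 to 1.25 times that length 59.3% held the miR-24 word and 70.4% the miR-23 word. These long UTRs had a median of 3 matches to the 3 families together, the number found in Cdk6. For Ccnd1, with a UTR of 2676 bases and 2 matches, the median at like length was 1 and the miR-23 word occurred in 27.2%. For Mycl (1970 bases) 23.6% held the miR-27 word. The 3′ UTR of Ccnd2, 5173 bases long, held none of the words, against a median of 2 matches at like length. A match is a description of the letters and not evidence of binding.

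**Figure D1:**
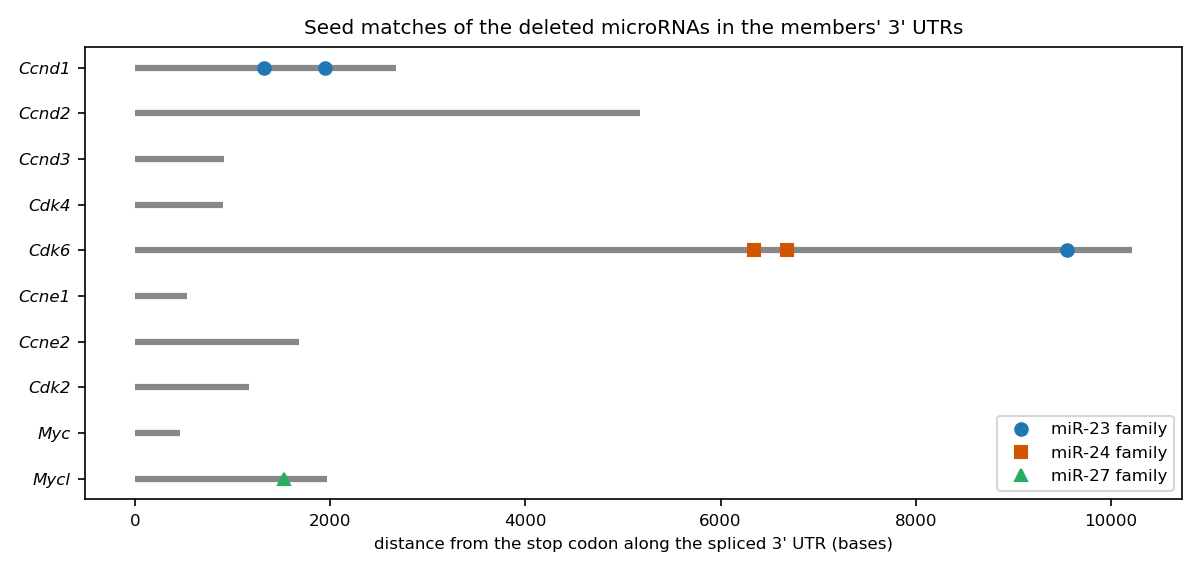
Seed matches along the longest annotated 3′ UTR of each member, with the distance from the stop codon in bases on the x axis and one grey line per gene as long as its UTR. Circles mark miR-23, squares miR-24 and triangles miR-27 matches: Cdk6 holds 3, Ccnd1 2 and Mycl 1.

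The libraries held between 31789395 and 46621080 reads recovered from the normalized values. Lyz2, which carries the Cre insertion, measured 174 to 273 normalized counts in KO and 156727 to 204853 in fl/fl libraries, which checks the Cre allele of the labels but not the loss of the clusters. All 8 macrophage markers examined were present, and their summed level was 227483 to 245459.8 in KO and 248356 to 328925 in fl/fl libraries. Csf1r, Cd68 and Itgam of that list were lower in KO (limma adjusted p = 0.0389, 0.0190 and 0.0103), and the list median was -0.34 on the log2 scale. Mrc1 alone of the 8 had a difference above 0 (0.19, limma adjusted p = 0.33). The 8 endothelial and mural markers summed to 123657 to 173016 in KO and 74296 to 130687 in fl/fl libraries, and the 8 fibroblast and preadipocyte markers to 129383 to 201422 and 95169.6 to 162928. All 8 markers of each of these 2 lists had a difference above 0, with list medians of 0.52 (endothelial and mural) and 0.37 (fibroblast and preadipocyte). In limma and edgeR 0 of these 16 markers passed. However, 5 endothelial and 3 fibroblast markers had an unadjusted limma p under 0.05, all higher in KO, and DESeq2 called Cldn5 and Col1a1. Of the 6 measured eosinophil and mast cell markers Siglecf was higher (limma adjusted p = 0.0297) and Ccr3 lower (0.0148) in KO. Of these 6 markers, 5 had a difference above 0, the list median was 0.63, and DESeq2 also called Kit higher. All 6 adipocyte and all 6 B cell markers had a difference above 0. So had 7 of 8 T and NK cell, 4 of 6 mesothelial and 3 of 4 measured neutrophil markers. In limma or edgeR 0 of these passed, with 7 at an unadjusted limma p under 0.05 and 5 called by DESeq2. Both counts include Il7r of the T and NK cell list, which was lower in KO (log2 difference -0.45, limma adjusted p = 0.106). Il7r made up most of the T and NK cell sum, which was 3379.9 to 4632 in KO and 4844 to 6328 in fl/fl libraries. Of all genes tested, 21.2% had an unadjusted limma p under 0.05 and 9.82% a DESeq2 call. Below, macrophages means the isolated preparation, which also held transcripts of these other cell types. The part of these cell types in the members' values was not tested. In bulk RNA, fewer cells of a type and less RNA per cell cannot be told apart. The library fl/fl replicate 1 stood apart: 14 of 19 S phase and mitosis markers had their highest value of all 8 libraries there, among them the proliferation marker Mki67, with 3224 to 4208 normalized counts in KO libraries and 5556 in fl/fl replicate 1 against 3366 to 3943 in the other fl/fl libraries.

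Of the 10 members, 1 passed the test between KO and fl/fl macrophages, the kinase gene Cdk6, which fell. The other 9 did not pass. Over all 15862 genes tested, 3.61% passed (limma, Benjamini-Hochberg adjusted p under 0.05), of which 196 were higher and 377 lower in KO, and nothing about the members as a group is read from 1 call. When libraries were scaled to equal read totals, 245 genes were higher and 244 lower. Values did not overlap between KO and fl/fl libraries for 2 members, Cdk6 and Mycl, against 13.7% of all genes; Cdk6 lay lower and Mycl higher in KO, and of all genes 8.21% were separate with lower and 5.52% with higher values in KO. An unadjusted p under 0.05 was found for 3 members, Ccnd2, Cdk6 and Mycl, against 21.2% of all genes (10.4% with a lower value in KO, as for Cdk6). The median log2 difference over the members was -0.09, against 0.002 over all genes tested, with 6 values below 0 and 4 above. Values below are normalized gene counts with mean ± SD (n = 4 per group), and log2 differences are KO minus fl/fl of log2(count + 1).

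**Figure D2:**
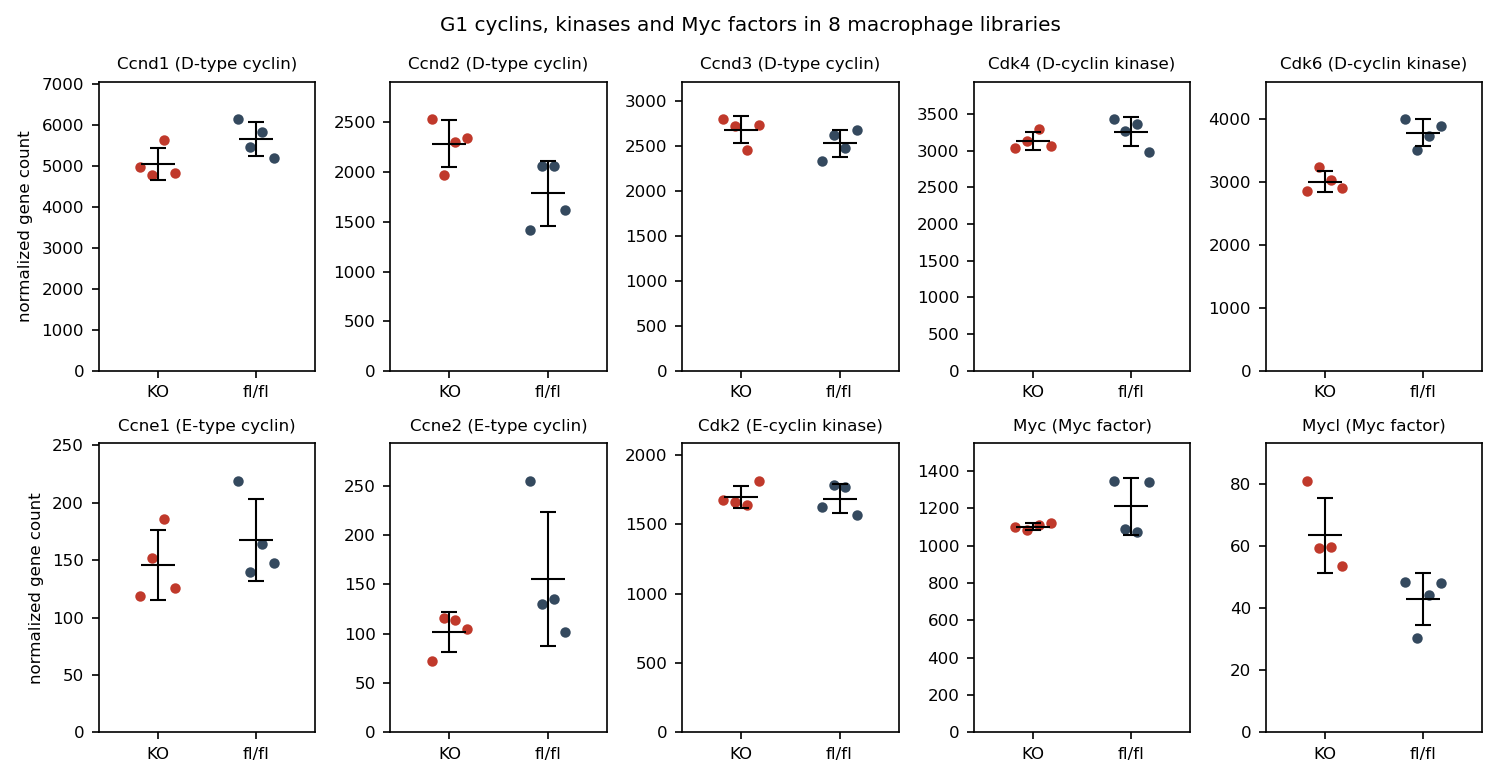
Normalized gene counts of the 10 members in each of the 4 KO and 4 fl/fl libraries, 1 point per library, with the mean and SD as bars. The panels have separate axes that start at 0. The groups are separate for Cdk6 and Mycl and overlap for the other 8.

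Ccnd1 encodes cyclin D1, the mitogen-responsive D-type cyclin of many tissues. It measured 4971, 4791, 5629 and 4836 in KO replicates 1 to 4, against 6142, 5456, 5837 and 5195 in fl/fl replicates 1 to 4. KO replicate 3 lay within the fl/fl range and the other 3 KO libraries lay below it. The means were 5057 ± 389 in KO and 5657 ± 417 in fl/fl macrophages, a log2 difference of -0.16 (SE 0.07, limma adjusted p = 0.240) with a 95% interval, not adjusted for the number of genes, from -0.33 to 0.00. Ccnd1 was therefore not called, with an interval that reached from a lower value in KO to no difference.

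Ccnd2 encodes cyclin D2, a D-type cyclin prominent in blood cells. It was 2532, 1973, 2302 and 2342 in KO libraries, against 1414, 2057, 2062 and 1617 in fl/fl libraries. The highest 3 values were all from KO libraries, but KO replicate 2 lay below fl/fl replicates 2 and 3, so the groups overlapped. The mean was 2287 ± 232 in KO and 1788 ± 325 in fl/fl macrophages (log2 difference 0.37, SE 0.13, adjusted p = 0.161, interval 0.07 to 0.67). Without fl/fl replicate 1, the lowest library, the difference was 0.26 (adjusted p = 0.264). The median difference was 0.52 for the endothelial and mural markers and 0.37 for the fibroblast and preadipocyte markers. The part of these cells in the Ccnd2 values was not tested.

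Ccnd3 encodes cyclin D3, which in mice is needed for the expansion of several blood lineages. It measured 2802, 2729.7, 2464 and 2738 in KO and 2340.3, 2622, 2480.2 and 2687 in fl/fl libraries. These ranges overlapped over most of their width, and the difference was 0.08 (SE 0.06, adjusted p = 0.487, interval -0.06 to 0.22).

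Cdk6 encodes the D-cyclin kinase that predominates in many blood cells. Its level was 2853, 3239.6, 3035 and 2914 in KO libraries, against 4001, 3506, 3739.6 and 3887 in fl/fl libraries. Every KO library lay below every fl/fl library. Cdk6 averaged 3010.3 ± 171 in KO and 3783 ± 214 in fl/fl macrophages, a fall to 79.6% (log2 difference -0.33, SE 0.06, limma adjusted p = 0.0248, interval -0.47 to -0.19). The call was also made by edgeR (adjusted p = 0.0288) and by DESeq2 (8.38e-05) on the recovered reads, where 3.51% and 9.82% of all genes passed. The authors' deposited DESeq2 comparison of the same libraries gives Cdk6 an adjusted p of 8.41e-05, which is not a separate source of the call. The limma call was lost when libraries were scaled to equal read totals (-0.27, adjusted p = 0.0591). It was also lost in 6 of 8 fits with a single library omitted (each but those omitting KO replicate 2 or fl/fl replicate 2). Over all 8 of these fits the difference was -0.37 to -0.30 and the adjusted p 0.0323 to 0.0713, and in the 6 without a call the adjusted p was 0.0502 or more. The fall in Cdk6 was about as large as the median difference of the 8 macrophage markers given above; the part of cell composition in it was not tested. The Cdk6 transcript, with 2 miR-24 matches and 1 miR-23 match, was thus lower in KO macrophages. Whether the deleted microRNAs act on it was not tested.

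Cdk4, the other D-cyclin kinase, showed no such separation. It measured 3035, 3129.7, 3300.1 and 3065 in KO and 3427, 3262, 3357 and 2979 in fl/fl libraries. The KO values all lay within the fl/fl range, and the difference was -0.05 (SE 0.06, adjusted p = 0.629, interval -0.18 to 0.07). The ratio of Cdk6 to Cdk4, taken within each library and therefore free of the scaling between libraries, was 0.940, 1.04, 0.920 and 0.950 in KO and 1.17, 1.07, 1.11 and 1.30 in fl/fl libraries in normalized counts. The KO ratios all lay below the fl/fl ratios; this ratio was chosen after the values were seen and was not tested. Cdk4 shares exon sequence with Tspan31 on the opposite strand, and since no source used here says whether strand was counted, reads of the pair cannot be told apart. Tspan31 itself had 1959 to 2274 in KO and 2313 to 2619 in fl/fl libraries (adjusted p = 0.253).

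**Figure D3:**
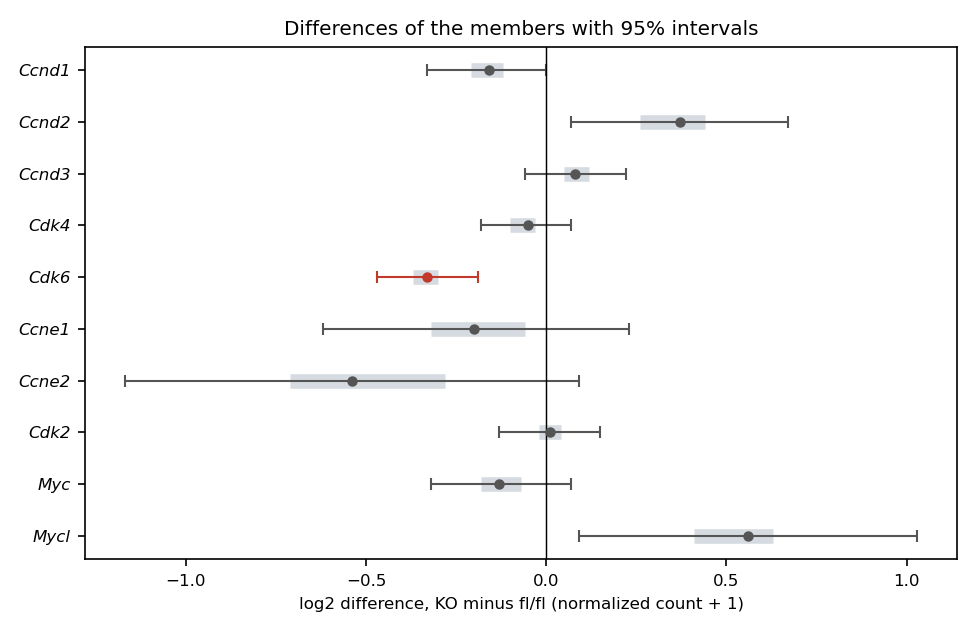
Log2 difference, KO minus fl/fl, of each member with its unadjusted 95% interval from limma (n = 4 per group). Grey bars span the values obtained when 1 library at a time was left out. Cdk6, in red, is the member that passed at -0.33, and the widest intervals are those of Ccne2 and Mycl.

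The E-type cyclins, which E2F factors induce late in G1, were scarce and varied more between replicates than the D-type cyclins or the kinases did. Ccne1 had 119, 152, 186 and 126 in KO, against 219, 140, 164 and 147 in fl/fl libraries. The groups overlapped and fl/fl replicate 1 was the highest of the 8. Its difference was -0.20 (SE 0.19, adjusted p = 0.588), and -0.06 without fl/fl replicate 1.

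Ccne2 had 72.1, 116, 114 and 105 in KO libraries and 255, 130, 135 and 102 in fl/fl libraries. Again fl/fl replicate 1 was the highest, while fl/fl replicate 4 lay below 3 KO libraries. The difference of -0.54 (SE 0.28, adjusted p = 0.306, interval -1.17 to 0.09) was -0.28 (adjusted p = 0.511) without fl/fl replicate 1. Within groups the coefficient of variation of Ccne2 was 20.1% in KO and 43.6% in fl/fl libraries, against 5.67% and 5.65% for Cdk6.

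Cdk2, the kinase that cyclin E activates, was nearly level. It measured 1676, 1658, 1638 and 1812 in KO and 1621, 1781, 1765 and 1569 in fl/fl libraries. The groups overlapped over most of their ranges, and the difference was 0.01 (SE 0.06, adjusted p = 0.940, interval -0.13 to 0.15), with its sign changing between fits that left out 1 library.

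Myc measured 1099, 1082, 1109.6 and 1121 in KO libraries, against 1348, 1088, 1073 and 1339 in fl/fl libraries. The KO values were tightly grouped (coefficient of variation 1.48%, against 12.6% in fl/fl libraries), whereas fl/fl replicates 1 and 4 lay above all KO libraries and fl/fl replicates 2 and 3 within or just below them. The difference was -0.13 (SE 0.09, adjusted p = 0.441, interval -0.32 to 0.07), and -0.07 without fl/fl replicate 1. In human cells miR-24 has been described as a repressor of MYC. In these libraries Myc was not called higher. Its annotated 3′ UTR of 466 bases held no full match to the 3 seed families. The search could not find recognition without a full seed match, and repression of Myc by miR-24 was not tested.

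Mycl encodes L-Myc, a relative of Myc best known in dendritic cells among immune cells. Its level was 80.9, 59.3, 59.5 and 53.6 in KO, against 48.3, 30.5, 44.3 and 47.9 in fl/fl libraries. All KO libraries lay above all fl/fl libraries, by a narrow margin between KO replicate 4 and fl/fl replicate 1. The means were 63.3 ± 12 in KO and 42.8 ± 8.37 in fl/fl macrophages (log2 difference 0.56, SE 0.21, adjusted p = 0.173, interval 0.09 to 1.03). At this level each value rests on few reads. The 6 dendritic cell markers summed to 1925 to 2157 in KO and 959 to 1582 in fl/fl libraries, with a median difference of 0.50 and 6 of 6 above 0. By limma and edgeR 0 of these markers passed, with 1 at an unadjusted limma p under 0.05 and Zbtb46 called by DESeq2. Zbtb46, which endothelial cells also express, made up most of that sum, with 1166 to 1633 in KO and 662 to 1164 in fl/fl libraries. Without it, a choice made after the values were seen, the other 5 markers summed to 349 to 823 in KO and 297 to 631 in fl/fl libraries and overlapped, and Clec9a averaged 86.0 in KO and 101 in fl/fl libraries. Whether dendritic cells contribute to the Mycl values was not tested.

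Levels of different genes were compared as normalized counts per kilobase of the longest annotated coding transcript. They describe whole libraries, which also held the endothelial and fibroblast transcripts given above. The part of each cell type in these levels was not tested. Cdk4 was highest at 1526 ± 57.8 in KO and 1586 ± 95.8 in fl/fl libraries. Next came Ccnd1 at 1352 ± 104 and 1513 ± 111 and Ccnd3 at 1269.8 ± 70.9 and 1199 ± 73.2. The ranges of these neighbours overlapped in the KO group, and in the fl/fl group Ccnd1 (1389 to 1642) overlapped Cdk4 (1451 to 1669) but not Ccnd3 (1108 to 1272). Cdk2 followed with 705 ± 32.8 in KO and 700 ± 43.7 in fl/fl libraries, then Myc with 472 ± 6.99 and 518 ± 65.1. Ccnd2 stood at 361 ± 36.7 and 282 ± 51.3 and Cdk6 at 261 ± 14.8 and 328 ± 18.6 per kilobase. Ccnd2 was above Cdk6 in every KO library, from 312 to 400 against 248 to 281, whereas in the fl/fl group Ccnd2 at 223 to 326 overlapped Cdk6 at 304 to 347. Lowest were Ccne1 (72.8 ± 15.2 in KO and 83.7 ± 17.8 in fl/fl), Ccne2 (33.9 ± 6.80 and 51.7 ± 22.5) and Mycl (18.1 ± 3.43 and 12.2 ± 2.39).

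The length used matters for this order. Per kilobase of all annotated exons, Ccnd1 came first (1074 ± 82.6 in KO and 1201 ± 88.5 in fl/fl libraries). Ccnd3 dropped to 306 ± 17.1 and 289 ± 17.6, below Myc. Which isoforms these cells use is not known from the table.

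On the scale of the longest coding transcript, the D-type cyclins together measured 3055, 2885, 3035 and 2958 per kilobase in KO and 2973, 3025, 3060.2 and 2916 in fl/fl libraries. On this scale the summed level was thus much the same in all 8 libraries. Within it Ccnd2 made up 13.1%, 10.8%, 12% and 12.5% in KO, against 7.52%, 10.7%, 10.6% and 8.76% in fl/fl libraries. The Ccnd2 shares did not overlap, though KO replicate 2 and fl/fl replicate 2 were almost equal. Ccnd1 made up 43.5% to 49.6% in KO and 47.6% to 55.2% in fl/fl libraries, and Ccnd3 38.4% to 44.8% and 37.3% to 43.6%, with overlap in both. These shares are descriptions that depend on the length used, and they were not tested. Per kilobase of all annotated exons, Ccnd3 averaged 306 in KO and 289 in fl/fl libraries, against 1074 and 1201 for Ccnd1.

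**Figure D4:**
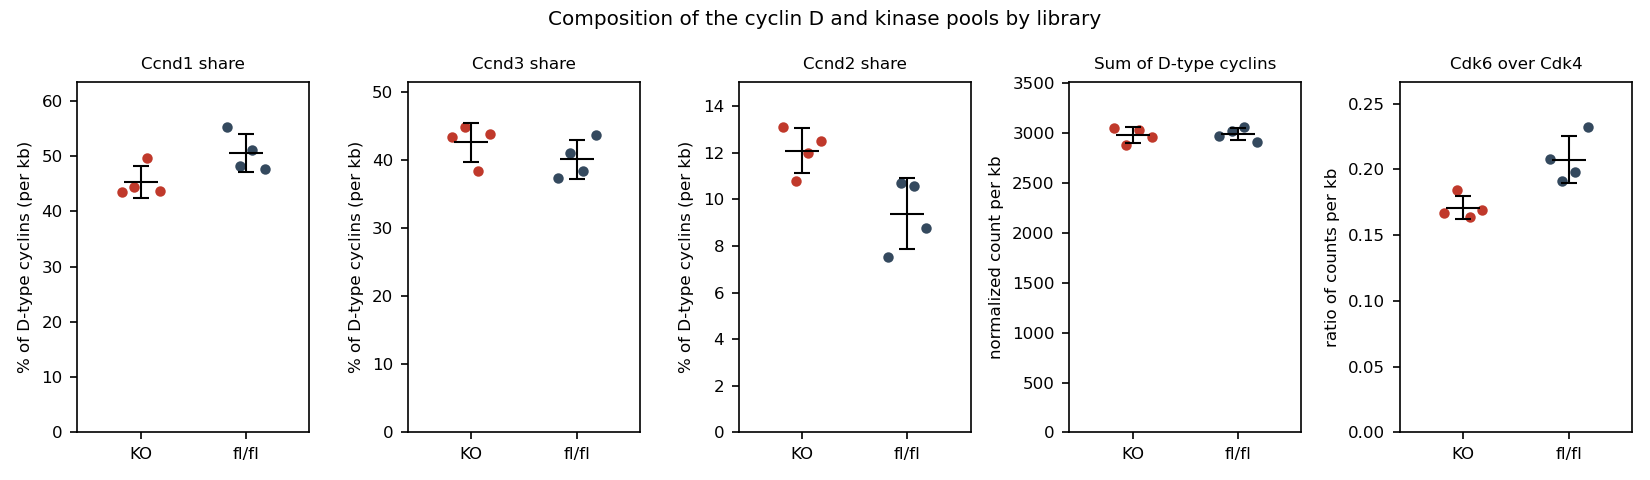
Shares of Ccnd1, Ccnd3 and Ccnd2 in the summed D-type cyclin level, the sum itself and the ratio of Cdk6 to Cdk4, all per kilobase of the longest coding transcript, in 4 KO and 4 fl/fl libraries with mean and SD. The sum lies between 2885 and 3060.2 in all 8 libraries, while the Ccnd2 share and the kinase ratio separate the groups.

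Around these genes, 9 lists of the G1 pathway held 116 tested genes, of which 0 were higher and 2 lower in KO macrophages, against 1.24% higher and 2.38% lower over all genes. The first of them was E2f1, the E2F factor that activates S phase genes. It measured 1278, 1298, 1448 and 1346 in KO and 1852, 1528, 1658 and 1656 in fl/fl libraries, without overlap (log2 difference -0.32, SE 0.07, limma adjusted p = 0.0447). Its call was kept only without fl/fl replicate 2 among the 8 fits omitting a single library and lost at equal read totals (-0.26, adjusted p = 0.0712). In the list of retinoblastoma and E2F genes the other 12 did not pass. Among them Rbl2, of highest mean count and encoding the pocket protein p130, differed by -0.02 (SE 0.06, adjusted p = 0.895). The list median was -0.11, and 4 of its genes had an unadjusted limma p under 0.05 with a lower and 1 with a higher value in KO. Such a p was found for 21.2% of all genes, and for 10.4% with a lower value in KO.

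The other was Mnt, a Max partner that represses Myc target genes. Mnt had 2462, 2031, 2262 and 2212 in KO, against 2867, 2886, 2739 and 2852 in fl/fl libraries. The groups were separate, with a log2 difference of -0.34 (SE 0.06, adjusted p = 0.0238). The call was kept at equal read totals (-0.28, adjusted p = 0.0371) and lost in 4 of 8 fits omitting a single library (KO replicates 3 and 4, fl/fl replicates 3 and 4), with adjusted p over the 8 of 0.0235 to 0.0646. The other 10 genes of the Myc and Max network did not pass. Among them Mxd4, another Max partner and the gene of highest mean count, differed by -0.05 (SE 0.06, adjusted p = 0.640, with a value of 0.01 at equal read totals). The list median was -0.13. Of 16 Myc target genes 0 passed in limma, edgeR or DESeq2, and 1, Odc1, the ornithine decarboxylase gene, had an unadjusted p under 0.05 (3346 ± 350 in KO and 2794 ± 198 in fl/fl, adjusted p = 0.123). The target of highest mean count, the nucleolin gene Ncl, differed by -0.14 (SE 0.09, adjusted p = 0.394), and the median over the 16 was -0.05.

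The inhibitors that oppose the cyclin kinases did not pass the test. Of 7 inhibitor genes 0 passed in limma or edgeR. DESeq2 called 3 lower (Cdkn1a, Cdkn2a and Cdkn2c), against 9.82% of all genes called in either direction. An unadjusted limma p under 0.05 was found for 5, all lower in KO, against 10.4% of all genes with a lower value in KO. The list median was -0.31, beside -0.34 for the macrophage markers, whose part in it was not tested. Cdkn2c, which encodes the Cdk4 and Cdk6 inhibitor p18, measured 1073, 823, 1033 and 1029 in KO, against 1288, 1236, 1241 and 1127 in fl/fl libraries (-0.31, SE 0.09, adjusted p = 0.0971). Cdkn1a, the p53 target p21 and the inhibitor of highest mean count, measured 3546 to 4044 in KO and 3842 to 5499 in fl/fl libraries. Its difference was -0.33 (SE 0.11, adjusted p = 0.131, and 0.0401 without fl/fl replicate 2). Only the first of these pairs of ranges was free of overlap.

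In the remaining lists 0 genes passed in limma or edgeR. For comparison, 21.2% of all genes had an unadjusted limma p under 0.05 and 9.82% a DESeq2 call, in either direction. Among 12 genes of cyclin and Myc turnover, 4 had an unadjusted p under 0.05 (1 higher, 3 lower), and DESeq2 called Skp2, the ubiquitin ligase subunit that targets p27. Skp2 had 442, 507, 466 and 424 in KO and 632, 514, 583 and 594 in fl/fl libraries (-0.34, SE 0.09, limma adjusted p = 0.0748), while the scaffold Cul1 differed by -0.01 (SE 0.06), with 0.05 at equal read totals. Among 10 genes of kinase activation none had an unadjusted p under 0.05 or a DESeq2 call; the chaperones Cdc37 and Hsp90ab1 differed by -0.11 (adjusted p = 0.476) and 0.04 (adjusted p = 0.794). Among 22 other cyclins and kinases, 4 had an unadjusted p under 0.05 with a higher and 1 with a lower value, and DESeq2 called 2 higher and 1 lower. Ccnk, the cyclin of the transcriptional kinases Cdk12 and Cdk13, had 1329.6 to 1408 in KO and 1156 to 1249 in fl/fl libraries (0.20, SE 0.05, adjusted p = 0.0603; 0.0411 at equal read totals), and the abundant Ccni differed by -0.11 (adjusted p = 0.314).

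Genes that act after G1 were not called either. Of 6 later cyclins and partners 0 passed in limma, edgeR or DESeq2 and 0 had an unadjusted p under 0.05. Ccna2, the S phase cyclin, measured 592 to 859 in KO and 606 to 1003 in fl/fl libraries (-0.13, SE 0.17, adjusted p = 0.707), and the mitotic cyclin Ccnb1 435 to 740 and 388 to 643 (0.15, SE 0.19, adjusted p = 0.704). With a single library omitted, Ccnb1 ranged from -0.00 (without KO replicate 3) to 0.28 (without fl/fl replicate 1). Of 19 S phase and mitosis markers 0 passed in limma, edgeR or DESeq2 and 1, the replication helicase gene Mcm3, had an unadjusted p under 0.05 (-0.22, SE 0.09, adjusted p = 0.187). The replication clamp gene Pcna, of highest mean count among them, differed by -0.16 (SE 0.09, adjusted p = 0.352), and by -0.08 without fl/fl replicate 1. The list medians were 0.02 and -0.06.

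**Figure D5:**
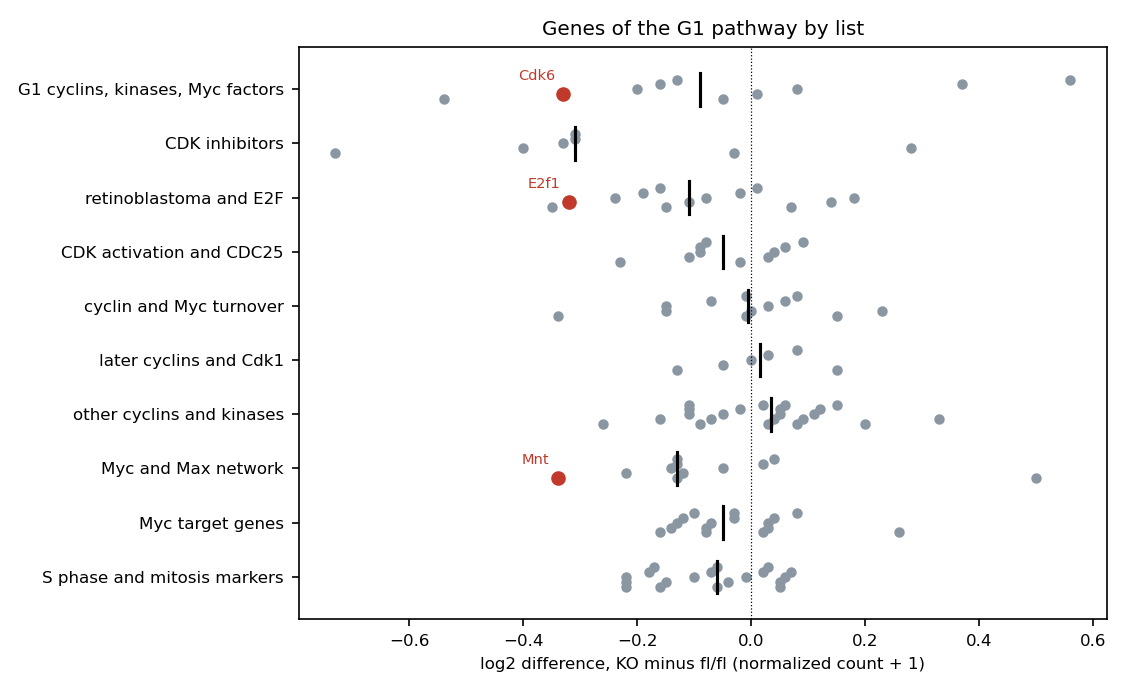
Log2 differences, KO minus fl/fl, of the 10 members and of the 9 other lists of the pathway, 1 point per gene, with the median of each list as a vertical bar. Red points passed the test (Cdk6, E2f1 and Mnt, all lower in KO). Points are offset vertically within a list for legibility.

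Gene positions on mm10 follow GENCODE M21. Cdk6 spans chromosome 5 from 3341485 to 3531008, Ccnd1 chromosome 7 from 144929931 to 144939925, Ccnd2 chromosome 6 from 127125162 to 127152193 and Mycl chromosome 4 from 122995652 to 123002485. Ccne1, Myc and Mycl share no exon sequence with another annotated gene. The other 7 do, in each case with a gene on the opposite strand: Ccnd1 with LTO1, Ccnd3 with Bysl, Ccne2 with Ints8, Cdk2 with Pmel, Cdk4 with Tspan31, Ccnd2 with 9330179D12Rik and Gm43126, and Cdk6 with Gm17590. Of these partners LTO1, Bysl, Ints8, Pmel and Tspan31 were measured and none passed, with limma adjusted p between 0.253 and 0.941. Since no source used here says whether strand was counted, reads of partners and members may be mixed where they overlap.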

How the data were processed

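The authors deposited normalized gene counts, a signal with 1 column per sample, and a DESeq2 comparison that holds, per the file headers, a log2 fold change of fl/fl over knockout (its sign is the reverse of the one used here), score columns with its standard error and statistic, and p-values. Per the submitters' processing notes, the tools were FastQC, cutadapt, Salmon and DESeq2 and the build mm10; versions and order are not stated. Each value was a whole number of reads times 1 factor per sample (100% within 0.01 reads). In fl/fl replicate 4 the factor is near 1, which low values do not distinguish from rounding, whereas values over the full range do. The lowest value in every column is 1 read, so no gene is at 0.

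The main test was limma 3.58.1 (R 4.3.3) on log2(value + 1), eBayes with trend, two-sided, for 15862 genes with a mean of at least 10, with Benjamini-Hochberg adjustment over all of them and a threshold of 0.05. Counting error is relatively larger for members near 50 counts than for those above 1000. Replicates of a group differed beyond sampling error (the lowest chi-square per gene between replicates was 8.86). edgeR 4.0.16 and DESeq2 1.42.0 were run on the recovered reads as alternatives, beside other pseudocounts, filters and scalings, a replicate block and the omission of each library. The fits were also tested on simulated data with changes larger than that of Cdk6, which says nothing about calls of its size. Sequences came from RefSeq (GRCm38.p6) and GENCODE M21. Since no label ties a replicate to 1 animal, p-values reflect only the variation among these libraries. Genes named are the 10 members and, of each list, any that passed, the gene of lowest p and the gene of highest mean; Mki67, Cdkn2a and the marker genes were named after their values were seen. Members and lists were chosen with earlier results of these data known. Skp1 was matched by its synonym Skp1a.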

Additional observations from a re-analysis of the deposited data

Results flagged for a closer look

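Among 28 named genes, the highest or lowest library of each group of 4 was compared with the others by Dixon's 95% criterion, which chance meets in about 1 of 20 groups; 56 groups were examined and 2 met it. Pcna measured 10682 in fl/fl replicate 1, against 8262 to 8609 in the other fl/fl libraries. Mcm3 measured 3137 in fl/fl replicate 1, against 2694 to 2713 in the others. None of the 10 members met the criterion, although 6 of them (Ccnd1, Cdk4, Cdk6, Ccne1, Ccne2 and Myc) had their highest value, and Ccnd2 and Ccnd3 their lowest, in that same library.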

How the results depend on the processing

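The count of genes passing was 573 and that of members 1; these became 1557 and 1 with DESeq2, 7 and 0 with the replicate block, 489 and 0 at equal read totals, and 163 to 502 and 0 to 1 when 1 library was left out (163 without fl/fl replicate 3, and 210, 296, 241 and 237 without KO replicates 1 to 4, with 376 and 324 without fl/fl replicates 1 and 4). Of the other lists 2 genes passed, 9 with DESeq2, 0 with the replicate block, and 0 to 3 with 1 library left out. Cdk6 kept its call only without KO replicate 2 or fl/fl replicate 2 among those 8 fits. Deviations of same-numbered samples from their group means correlated at -0.200, -0.199, -0.036 and -0.293. The labels do not say whether same-numbered libraries were paired. These correlations cannot decide it, because deviations from a group mean depend on each other. With the replicate block Cdk6 had an adjusted p of 0.210, E2f1 0.221 and Mnt 0.184. At equal read totals the sign turned for Cul1 (0.05), Mxd4 (0.01) and Rbl2 (0.04). With 1 library left out it turned for Cdk2 (-0.02 to 0.04), Ccna2 (-0.24 to 0.01), Cul1 (-0.04 to 0.04) and Rbl2 (-0.04 to 0.01). The cause of these shifts was not tested. Other pseudocounts (0.5 and 5), TMM factors, both filters and edgeR left the member count at 1. Ccne1, Ccne2 and Mycl rest on the fewest reads, and the Ccne1 and Ccne2 differences shrank without fl/fl replicate 1.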
